A study of Caenorhabditis elegans with 6 samples.

Results

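Of the 103 genes whose name starts with col- in the deposited table of 5792 genes, 22 had a higher mean expression value in TGQ animals than in WT animals. These 22 collagen genes were chosen by that comparison itself, from the mean of the 3 TGQ samples and the mean of the 3 WT samples, so their differences between the groups are given below as a description and are not tested. They are col-3, col-10, col-17, col-41, col-42, col-46, col-47, col-54, col-90, col-98, col-99, col-103, col-117, col-128, col-144, col-147, col-158, col-166, col-167, col-169, col-170 and col-176. The other 81 col- genes of the table had a lower mean in TGQ. Polyadenylated RNA of whole Caenorhabditis elegans was sequenced at the L4 larval stage, the last before adulthood, in a study on raised mitochondrial DNA content passed across generations, by its title. The WT animals are of strain SJ4100, which is known to carry a GFP reporter under the hsp-6 promoter. The other strain is labelled TGQ, and the sources used here give neither its derivation nor whether it carries the reporter. Each group had 3 samples, and all animals fed on OP50 at 20 °C from hatch. Separate cultures are not stated for the samples of a group. The p-values therefore cover only the spread seen among these samples, which may be technical.

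The nematode cuticle is an extracellular coat built mainly of small collagens that the hypodermis secretes. A new cuticle is made before each moult, and its collagen genes are switched on in waves during each larval stage, with some used at every stage and others at a single stage. A cuticle collagen chain is hydroxylated on prolines, folds with partner chains into a triple helix, is trimmed at its ends by proteases and is then cross-linked outside the cell.

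The name of the group was checked against the protein domains that the deposited table lists. The cuticle collagen N-terminal domain was listed for 17 of the 22 genes and for 79 of the other 81 col- genes. The 5 without it were col-17, for which no domain of any kind was listed, and col-46, col-47, col-99 and col-128, for which the collagen triple helix repeat was listed alone. The gene ontology term for a structural constituent of cuticle was given for 18 of the 22, col-17 among them, and was missing for the same 4 genes, col-46, col-47, col-99 and col-128. The product of col-99 is known as a transmembrane collagen that acts in the nervous system. Beyond col-10, whose promoter is widely used to drive expression in the hypodermis, an individual role is not stated here for the other genes. The label of cuticle collagen therefore rests on listed domains or terms for 18 genes and is not borne out by them for 4.

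The values are the authors' normalized expression signal, whose unit the table does not name. An error was derived from the authors' log2 fold changes and p-values. In 1109 low genes the log of its square had a slope of -0.87 on the log of the value and of -0.83 on that of the transcript length. That is roughly the behaviour of a value divided by gene length, but these genes had all passed the authors' test, which may shape the slopes. Levels of different genes are compared below as per-length signal on that basis. Summed over the table, the signal of a WT sample was 327792 to 349508 and that of a TGQ sample 282762 to 293887. No gene in the authors' deposited table had an adjusted p above 0.0499, so all had been selected for a difference between these samples beforehand, and the 53 of 156 annotated col- genes outside it are not analysed here. In log2(value + 1), WT replicate 1 stood apart from the other WT samples, with correlations of 0.987 and 0.988 to them against 0.995 between the other 2. TGQ replicate 1 had correlations of 0.989 and 0.99 to the other TGQ samples, against 0.993 between those. Oocyte and sperm markers were lower in TGQ. Most tested markers of hypodermis, body wall muscle, neurons and intestine were higher, and values are given with the last results.

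The 22 genes ran from 1.41-fold to 17.3-fold higher in TGQ, and 3 genes stood apart at the top. As a ratio of the mean signal in TGQ to that in WT, col-41 was at 17.3, col-54 at 8.62 and col-90 at 4.32, 7 genes lay between 2.22 and 3.17, 8 between 1.54 and 1.96, and 4 between 1.41 and 1.46. The median was 1.86, a log2 ratio of 0.89, beside -0.23 over the 5779 genes of the table with a signal in both groups and -1.13 over the other 81 col- genes. At least 2-fold differences were found for 10 of the 22, beside 12.8% of the genes of the table with a WT mean above 0. The lowest TGQ sample exceeded the highest WT sample in all 22, beside 44.3% of the table. With limma, 21 genes were tested and 21 were called higher, beside 45.6% of the genes tested, and col-158 fell below the filter on low values. The rule used this same contrast, so nothing is read from these counts. In the authors' deposited table the log2 fold changes of the 22 genes ran from 0.35 to 3.98.

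**Figure D1:**
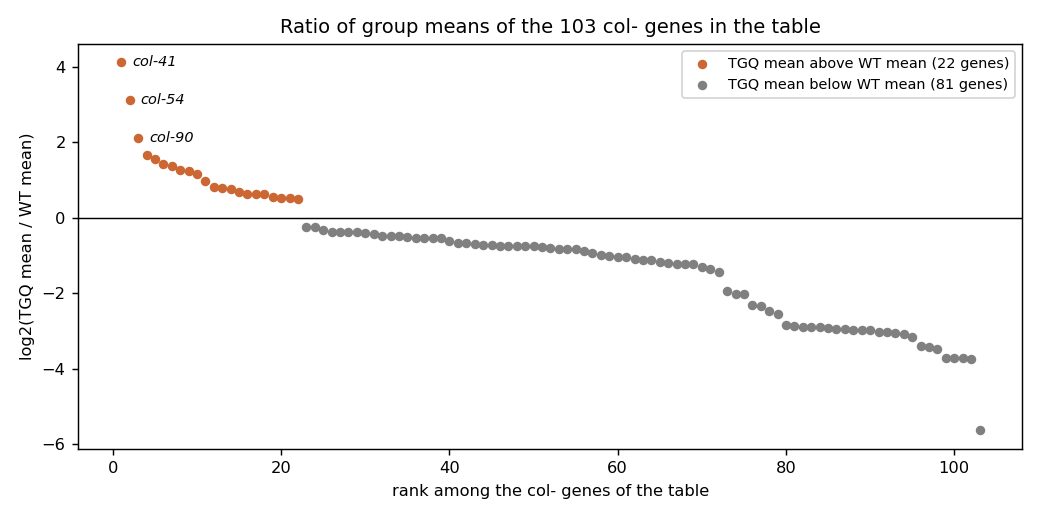
Log2 ratio of the TGQ mean to the WT mean (vertical axis) for the 103 col- genes of the table, ordered from the highest to the lowest (horizontal axis). The 22 genes above 0 begin with col-41, col-54 and col-90, and no col- gene of the table has a ratio between 0.844 and 1.41.

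The gene with the widest difference, col-41, had a signal of 12.5, 12.3 and 14.6 in the WT samples and 163, 251 and 267 in the TGQ samples. Its lowest TGQ sample was 11.2 times its highest WT sample. It lies on chromosome X at 15175032 to 15176481 on the minus strand (WBcel235, as are all positions here; the sources used here do not give the authors' build). The whole gene sits inside ucr-2.2, a gene of the opposite strand that encodes a subunit of respiratory complex III, with 0 bases of shared exon. For ucr-2.2 the mean signal went from 83.9 ± 2.13 (SD, n = 3) to 116 ± 2.06, a ratio of 1.38. The enclosing gene therefore differed far less than col-41.

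The signal of col-54, on chromosome I at 5842709 to 5844050, was 5.71, 7.24 and 5.83 in WT and 41.4, 58.3 and 62.3 in TGQ. That of col-90, on chromosome III at 7948838 to 7950068, was 85.4, 78.5 and 75.1 in WT and 275, 369 and 388 in TGQ. In col-41, col-54 and col-90 the lowest TGQ sample was replicate 1 and the highest was replicate 3. The best Swiss-Prot match that the table lists for col-41 is the col-90 protein itself, and these genes had the highest and the third highest ratio of the group. The exons of col-90 share 98 bases with let-754, an adenylate kinase gene of the opposite strand, whose signal was 151 ± 4.24 in WT and 198 ± 4.72 in TGQ.

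**Figure D2:**
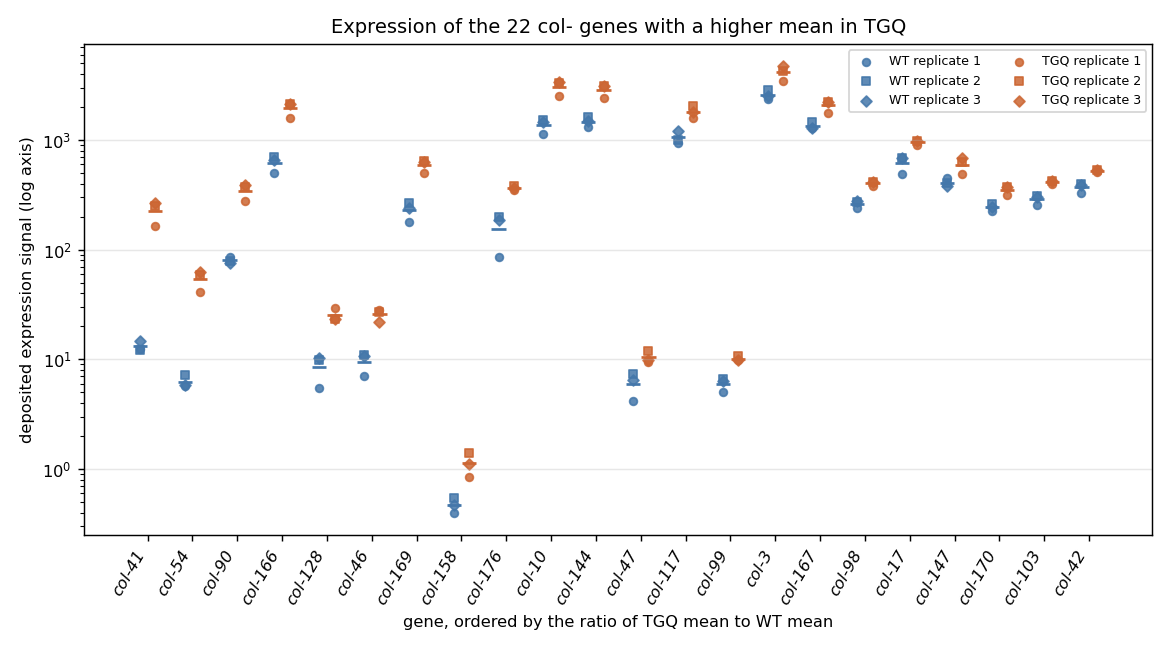
Deposited expression signal on a log axis for each of the 22 genes, with WT replicates in blue, TGQ replicates in orange and bars at the group means. No TGQ point lies below a WT point of the same gene, levels run from below 1 for col-158 to 4696 for col-3, and the circles of replicate 1 are mostly the lowest of their group.

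Most of the transcript signal came from genes that were already abundant in WT. The 22 genes summed to a signal of 9925, 12025 and 11415 in the WT samples and 17729, 22155 and 22474 in the TGQ samples. The mean of the sums was 11122 ± 1080 (SD, n = 3) for WT and 20786 ± 2652 for TGQ, a ratio of 1.87. The 3 genes of highest level, col-3, col-10 and col-144, made up 48.6% ± 0.929 of the WT sum and 48.3% ± 1.21 of the TGQ sum, so these shares differed by less than their spread. The other 81 col- genes went from 53038 ± 2436 to 20381 ± 1469. Of the signal of all 103, the 22 genes made up 15.2%, 18.5% and 18.4% in the WT samples and 44.6%, 53.4% and 53.2% in the TGQ samples.

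The highest level was that of col-3, with 2387, 2831 and 2504 in WT and 3476, 4257 and 4696 in TGQ, a ratio of 1.61. For col-10 the signal was 1138, 1514 and 1452 in WT and 2501, 3276 and 3350 in TGQ, a ratio of 2.22. For col-144 it was 1301, 1607 and 1481 in WT and 2397, 3117 and 3107 in TGQ, a ratio of 1.96. At levels above 1000 in the TGQ mean the group also held col-166, col-167 and col-117, 6 genes in all.

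In col-166, an intronless gene on chromosome X at 6280016 to 6280921, the signal was 496, 696 and 658 in WT and 1590, 2142 and 2139 in TGQ. With a ratio of 3.17 it was the most raised of the 6 abundant genes. That of col-167 was 1283, 1452 and 1285 in WT and 1772, 2234 and 2217 in TGQ, a ratio of 1.55. The col-117 signal was 947, 1001 and 1214 in WT and 1587, 2025 and 1792 in TGQ, a ratio of 1.71. In the table col-117 and col-3 have the same UniProt accession and the same best protein match, so reads of these near-identical copies could have been split between them and their separate values are uncertain.

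At middle levels, between 100 and 1000 in the TGQ mean, lay 10 genes. Among them col-169, an intronless gene of chromosome X, was at 178, 269 and 240 in WT and 501, 640 and 627 in TGQ, a ratio of 2.57. The WT samples differed most in col-176, on chromosome X at 10077597 to 10078728, where they were at 85.3, 196 and 185, against 349, 382 and 368 in TGQ. Its WT coefficient of variation of 39.3% was the widest of the group, and its ratio was 2.35, or 1.92 without WT replicate 1. The group means of col-98 were 262 and 405 (ratio 1.54), those of col-17 were 618 and 951 (1.54) and those of col-147 were 409 and 597 (1.46). In col-147 the lowest TGQ sample was 1.09 times the highest WT sample, the narrowest gap of the group. Its exons share 228 bases with T06E4.5, a protein-coding gene of the opposite strand that is not in the table. The best protein match listed for col-17 is also that of col-73, which had a ratio of 0.712. Their UniProt entries differ, so they are not shown to be copies, and whether reads were split between them was not tested.

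The 6 genes with a TGQ mean below 100 included the 4 for which neither the cuticle domain nor the cuticle term was listed. The signal of col-128, on chromosome IV at 11550002 to 11551960, was 5.51, 9.82 and 10.2 in WT and 29.1, 23.5 and 23.1 in TGQ. Its exons share 219 bases with F12F6.17, a noncoding RNA gene of the opposite strand that is not in the table. The signal of col-46 was 7, 10.9 and 10.6 in WT and 28, 27.1 and 22 in TGQ. These 2 genes were the exceptions of the group in which TGQ replicate 1 was the highest TGQ sample.

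The signal of col-47 was 4.18, 7.29 and 6.46 in WT and 9.44, 12 and 9.88 in TGQ. The exons of col-46 and col-47 share 482 bases on opposite strands of chromosome I, at 741878 to 747213 and 745888 to 748288. Whether counting used strand is not stated, and without it reads of this stretch cannot be told apart. The transmembrane collagen gene col-99, with 18 coding exons in its longest annotated coding transcript against at most 5 in the rest of the 22, was at 5.05, 6.56 and 6.32 in WT and 9.75, 10.7 and 9.78 in TGQ. Its exons share 108 bases with daf-1, a TGF-beta receptor gene of the opposite strand, whose signal went from 4.76 ± 0.392 to 8.35 ± 0.592, a ratio of 1.75 beside 1.69 for col-99. The least abundant gene, col-158, was at 0.4, 0.54 and 0.47 in WT and 0.85, 1.41 and 1.11 in TGQ. Its exons share 149 bases with the noncoding RNA gene D2023.15 and 23 with nphp-4, both of the opposite strand and not in the table.

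The genes just inside the threshold were col-170, col-103 and col-42. The signal of col-170 was 226, 263 and 244 in WT and 314, 372 and 372 in TGQ, a ratio of 1.44. That of col-103 was 255, 306 and 299 in WT and 400, 418 and 421 in TGQ, also a ratio of 1.44. That of col-42 was 329, 398 and 388 in WT and 510, 528 and 532 in TGQ, the lowest ratio of the group at 1.41. In col-42 the TGQ samples lay within a coefficient of variation of 2.27%, the narrowest of the 22.

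Just outside it, col-39 was at 768, 551 and 512 in WT and 448, 525 and 573 in TGQ, a ratio of 0.844, and its groups overlapped. For col-156 the signal was 137, 138 and 141 in WT and 94.8, 133 and 122 in TGQ, a ratio of 0.84. For col-111 it was 72.4, 90.4 and 86.6 in WT and 75.3, 62.2 and 60.4 in TGQ, a ratio of 0.794, and its groups overlapped as well. No col- gene of the table had a ratio between 0.844 and 1.41, in a table that lists genes past the authors' own test.

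Inside the groups, which the rule did not use, the 22 genes shared a pattern over the samples. WT replicate 1 was the lowest WT sample in 19 of the 22 genes, beside 28 of the other 81 col- genes and 17.2% of the whole table. TGQ replicate 1 was the lowest TGQ sample in 20 of the 22, beside 21 of the other 81 and 21.4% of the table. Both held in 17 of the 22 genes, in 6 of the other 81 and in 6.27% of the table. The median of the 22 genes, relative to the mean of the group, was 0.887 in WT replicate 1, against 1.1 and 1.05 in the other 2 WT samples, and 0.868 in TGQ replicate 1, against 1.07 and 1.04 in the other 2 TGQ samples. Over the 3716 genes of the table with both means of at least 5, the same medians of the replicate 1 samples were above the group mean, at 1.1 in WT and 1.04 in TGQ. Whether the shared number pairs these samples is unknown, as the labels give it no meaning beyond the name. No test was made of the pattern, since the genes of a sample are not independent.

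The other collagens and the germline markers showed other orders over the samples. In all 6 furrow collagen genes described below, WT replicate 1 was again the lowest WT sample, but TGQ replicate 1 was the highest TGQ sample, the order also seen in col-46 and col-128. In all 14 oocyte and eggshell markers, replicate 1 was the highest sample in both groups, the reverse of the order in most of the 22 genes. Over the whole table, WT replicate 1 was the highest WT sample in 68.2% of the genes and TGQ replicate 1 the highest TGQ sample in 54.6%. The part of the germline markers in the spread of the 22 genes was not tested. Median coefficients of variation of the 22 genes were 13.5% in WT and 13.1% in TGQ, beside 14.8% and 9.89% over the table.

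**Figure D3:**
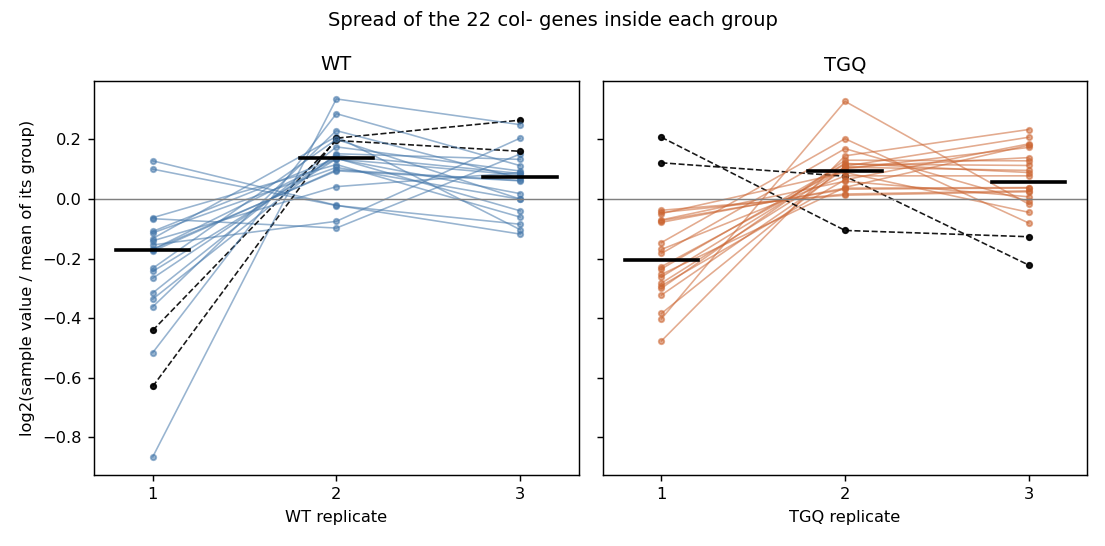
Log2 ratio of each sample to the mean of its own group (vertical axis) for the 22 genes, with WT samples on the left and TGQ samples on the right; each line is a gene, dashed black lines are col-46 and col-128, and thick bars are medians over the genes. Replicates have no order, and the lines only join values of a gene. Replicate 1 has the lowest median in both panels, and only col-46 and col-128 have their highest TGQ value there.

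The 22 genes lay on every nuclear chromosome, with 6 on X, 5 each on IV and V, 3 on I, 2 on III and 1 on II. Chromosome X held 27.3% of them and 12.3% of the other 81 col- genes, a difference that was not tested. Genes with a single coding exon numbered 4 of the 22, namely col-166, col-167, col-169 and col-170, and 4 of the other 81. The median coding length was 902 bases, beside 906 in the other 81. Within 10 kb of another col- gene lay 11 of the 22, in 6 neighbourhoods. The same share was not counted for the other 81, so closeness is not given as a trait of the 22.

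The neighbourhoods were of 2 kinds, those in which every measured gene was higher and those in which neighbours went opposite ways. A neighbourhood was listed only if it held a gene with a higher mean in TGQ, so none with every gene lower could appear. On chromosome X, 5 intronless col- genes follow each other on the plus strand from 6323488 to 6335221. Of these col-167, col-169 and col-170 had ratios of 1.55, 2.57 and 1.44, and col-168 and col-171 are not analysed here. The pairs of col-3 with col-117, read away from each other with 587 bases between them on chromosome IV at 8822962 to 8826013, and of col-46 with col-47 were also higher throughout.

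On chromosome V, col-144, col-145 and col-10 follow each other on the minus strand between 9159586 and 9165307. The outer genes had ratios of 1.96 and 2.22, while col-145 between them went from 773 ± 43.9 (SD, n = 3) to 462 ± 44.9, a ratio of 0.597. On chromosome II, col-17 had a ratio of 1.54, and the next genes on the same strand, col-20 and col-73, had ratios of 0.123 and 0.712. The signal of col-20 was 1248, 1022 and 942 in WT and 178, 91.5 and 125 in TGQ. Also on chromosome V, col-147 had a ratio of 1.46 and its neighbour col-146, on the other strand with 1016 bases between them, had one of 0.771. Every measured gene was higher in 3 of the 6 neighbourhoods. Among them were the pairs of col-3 with col-117 and of col-46 with col-47, whose reads may not be separate, as stated above.

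**Figure D4:**
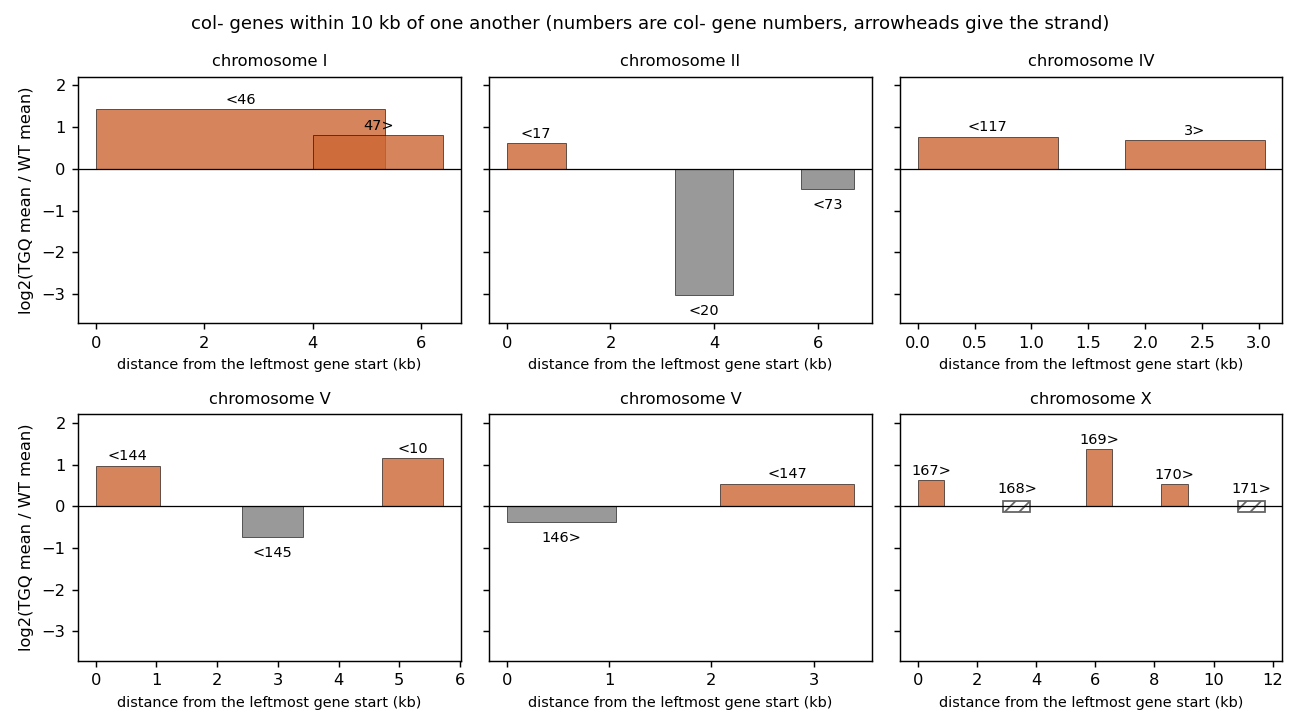
Log2 ratio of the TGQ mean to the WT mean (vertical axis) of col- genes that lie within 10 kb of another, against the distance in kilobases from the leftmost gene (horizontal axis), with numbers for the gene names and arrowheads for the strand. Only neighbourhoods that hold a gene with a higher mean in TGQ are shown. Orange bars are higher and grey bars lower in TGQ, and the hatched boxes of col-168 and col-171 carry no value. The panels of chromosome II and chromosome V hold bars on both sides of 0.

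The collagen genes with other names and the enzymes that process collagen were not used by the rule and were tested in the same limma fit. The furrow collagens, which form the ring-shaped furrows of the cuticle, were measured for all 6 listed genes, and all 6 rose, beside 45.6% of the genes tested in the table, with a median log2 change of 1.33 beside -0.22 for all genes tested. The signal of dpy-10 was 32.2, 47.4 and 51.4 in WT and 130, 120 and 116 in TGQ, and limma gave it an adjusted p of 6.62e-05 with a log2 change of 1.49 (SE 0.16). The furrow collagen dpy-7 was at 45, 71.6 and 72.3 in WT and 168, 161 and 157 in TGQ (log2 change 1.38, SE 0.17, adjusted p = 0.000122). The smallest rise was that of dpy-3, with a log2 change of 1.14. Their ratios of signal ran from 2.13 to 2.8, and in each gene all TGQ samples lay above the WT samples, beside 44.3% of the table.

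Of 13 other named cuticle collagens, 5 were tested, with 2 higher and 2 lower, beside 45.6% and 44.6% of the genes tested. The signal of dpy-17, which is needed for secretion of the collagen SQT-3, was 9.03, 9.39 and 8.02 in WT and 62.3, 56.1 and 51.8 in TGQ (log2 change 2.56, SE 0.12, adjusted p = 2.13e-06, limma). The strut collagen gene bli-1 also rose, from 99.9 ± 20.8 (SD, n = 3) to 158 ± 31.4. The body-shape genes dpy-4 and dpy-5 were called lower, with log2 changes of -0.33 and -0.21. Their calls were each lost after quantile normalization and median-ratio scaling and without WT replicate 2, WT replicate 3, TGQ replicate 2 or TGQ replicate 3, and that of dpy-5 also without TGQ replicate 1. The fifth gene, dpy-13, was not called (log2 change -0.26, adjusted p = 0.0818, limma). It was called lower without WT replicate 1 (log2 change -0.44, adjusted p = 0.000232, limma), with the authors' scaling and with the replicate number added to the fit as a block. Of the collagens of basement membranes, cle-1 alone was tested, at 17.2 ± 3.69 and 13.6 ± 0.249, and was not called (adjusted p = 0.0851), though it was with the authors' scaling (adjusted p = 0.025).

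Of 16 genes of collagen processing, 6 were tested, with 5 higher and 1 lower, beside 45.6% and 44.6% of the genes tested, and a median log2 change of 0.7. Proline hydroxylation was represented on both sides. The catalytic subunit gene phy-2 was at 41.3, 34.6 and 39.7 in WT and 78.3, 68.5 and 61.6 in TGQ (log2 change 0.83, SE 0.12, adjusted p = 0.000341, limma), and its partner subunit gene pdi-2 at 847, 1023 and 1100 in WT and 1461, 1480 and 1394 in TGQ (log2 change 0.55). The paralog phy-3, known from the spermatheca, fell from 7.37 ± 1.01 to 2.74 ± 0.909, with a log2 change of -1.18. The protease gene dpy-31, whose product trims the collagen SQT-3 at its C-terminal end, rose 1.94-fold in signal from 15.5 ± 1.02 to 29.9 ± 1.95. The moulting protease gene nas-37 rose 2-fold, from 25.3 ± 3.38 to 50.5 ± 4.15. The dual oxidase gene bli-3, which serves cross-linking, was called higher with a log2 change of 0.56 (adjusted p = 0.0268), a call lost with the authors' scaling and without WT replicate 2, WT replicate 3, TGQ replicate 1 or TGQ replicate 2.

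Cuticlins, a separate family of insoluble cuticle proteins, were tested for 14 of 35 listed genes, with 12 higher and 2 lower, beside the same 45.6% and 44.6% of all genes tested. Their levels were low, with a summed signal of 55.8 ± 1.08 (SD, n = 3) in WT and 76.8 ± 2.44 in TGQ over the 16 in the table, so the added 1 understates their changes. The gene cutl-9, at 0.51, 0.47 and 0.51 in WT, entered the fit only through its TGQ samples, so it could only be counted as higher. In WT, cutl-6 was at 0.6, 1.24 and 0.96 and cutl-22 at 1.37, 1.49 and 0.5. These genes passed the filter with the help of their TGQ samples, which favours a higher call. The signal of cutl-3 was 1.15, 1.42 and 1.4 in WT and 4.77, 5.58 and 4.49 in TGQ (log2 change 1.35, SE 0.13, adjusted p = 3.36e-05, limma). The largest fall was that of cut-4, from 14.6 ± 1.3 to 9.32 ± 1.41. The calls of cutl-20 and cutl-23 were lost in some of the fits that left out a sample, cutl-20 without TGQ replicate 2 or 3 and cutl-23 without WT replicate 2, and that of cutl-20 also with the authors' scaling.

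Regulators of cuticle gene transcription rose in all 10 genes tested of 13 listed, beside 45.6% of the genes tested, with a median log2 change of 0.99. The membrane-bound transcription factor gene myrf-1, needed for larval development, was at 13.6, 15 and 18.9 in WT and 43.7, 49.2 and 43.4 in TGQ (log2 change 1.47, SE 0.14, adjusted p = 2.95e-05, limma). The nuclear receptor genes of the moult, nhr-23 and nhr-25, rose from 16.6 ± 1.96 (SD, n = 3) to 24.8 ± 1.9 and from 1.35 ± 0.281 to 4.56 ± 1.25. The zinc finger gene blmp-1 rose from 10.1 ± 1.26 to 20.6 ± 1.87, and lin-42, related to the clock gene period, from 115 ± 21 to 163 ± 9.88. The DNA-binding protein gene peb-1 rose 3.07-fold in signal. Over these lists together, 35 of 42 tested genes were called higher, beside 45.6% of the genes tested in the table, and 5 of 42 lower, beside 44.6%. The 35 include cutl-9, which could only be counted as higher, and cutl-6 and cutl-22, which passed the filter with the help of their TGQ samples. All genes counted here had first been selected by the authors' test, so the counts are not independent of it.

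**Figure D5:**
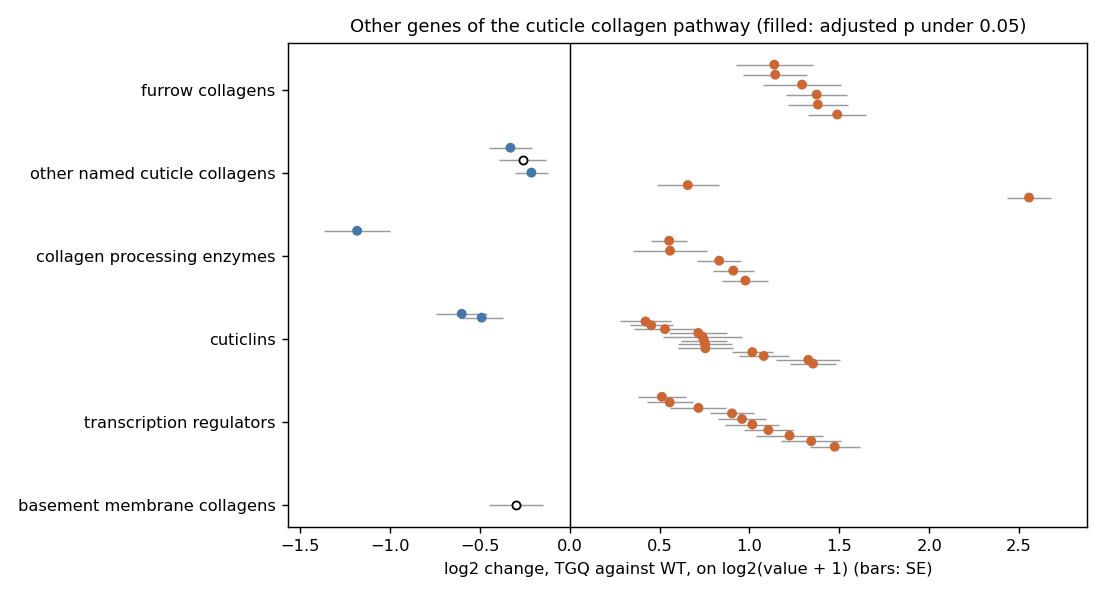
Log2 change between TGQ and WT on the log2(value + 1) scale (horizontal axis, bars are standard errors) for 42 tested genes that are not among the 22, by list (vertical axis), with filled points for an adjusted p under 0.05 by limma. All points of the furrow collagens and of the transcription regulators lie to the right of 0, and the lists of named collagens, processing genes and cuticlins have points on both sides.

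Markers of whole cell types moved with the same groups of samples, and their counts stand beside 45.6% of the genes tested called higher and 44.6% called lower. Of 14 hypodermis and seam markers, 8 were tested, with 7 called higher and none called lower. The other, nekl-2, had every TGQ sample below every WT sample, but was not called (log2 change -0.27, adjusted p = 0.0574, limma). The marker nhr-73 entered the fit only through its TGQ samples, so it could only be counted as higher. The summed signal of the markers in the table was 168 to 200 over the WT samples and 458 to 470 over the TGQ samples. Within it, the group mean of wrt-10 went from 62.3 to 200 and that of grd-10 from 36.9 to 122. All 14 oocyte and eggshell markers fell, with a summed signal of 1112 to 1517 in WT and 218 to 347 in TGQ. Of 14 sperm markers, 12 were in the table and all 12 fell, with sums of 2320 to 2778 and 800 to 951. Of the 10 listed markers each of intestine, body wall muscle and neurons, 3, 3 and 2 were tested, of which 7 rose and 1, an intestinal marker, fell. None of the tested markers was at 0 in a group. The part of these differences in the values of the 22 genes was not tested. In RNA of whole animals, a change in the share of a tissue and a change in the RNA of each of its cells cannot be told apart.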

How the data were processed

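Groups and replicate numbers follow the sample titles. Per the submitters' processing notes, TopHat2, TopHat and RSEM were used, with no version or role stated; the sources used here give no build or annotation. The single deposited table holds a normalized expression signal per gene and sample, the authors' group means, a fold change as a ratio with a log2 column, and raw and adjusted p-value columns, per the file headers. No read counts or depths were used, so no counting intervals are given and the depth is unknown.

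The 22 genes and all gene lists were chosen with earlier results of these data known. Ratios are of group means of the deposited signal. The design foresaw limma for normalized values, so limma 3.58.1 (R 4.3.3, trend and robust options, group the sole term) was run on log2(value + 1). A gene entered if 3 or more samples reached 1, which 5540 did, and Benjamini-Hochberg adjustment was over these, with calls under 0.05. The code was tested on simulated data. Positions, exons and overlaps come from the WBcel235 annotation, in which all 103 col- genes were found. Values in all samples are given for the 8 genes of largest ratio with a TGQ mean of at least 10, the 5 of highest TGQ mean and the 3 on each side of the threshold, and were added for other genes after their values were seen. In the lists, at most 6 called genes with the largest changes in each direction are named, and other genes such as nhr-23, lin-42, dpy-13, bli-3 and cle-1 were added after their values were seen. Alternatives were another pseudocount, no filter, 3 scalings, group medians, a replicate block and leaving out each sample.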

Additional observations from a re-analysis of the deposited data

How the results depend on the processing

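All 22 genes kept a TGQ value above the WT value with the authors' scaling, median-ratio scaling, group medians and without each sample in turn, and the lowest ratio of any of them was 1.29. The authors' scaling lowers the TGQ values by 0.13 on the log2 scale and left 21 of the 22 with groups that do not overlap. The number at least 2-fold higher ran from 9 to 11 when samples were left out. The summed TGQ signal was 1.71 to 1.99 times that of WT over the scalings. The median log2 change of all genes tested was -0.22, or -0.35 under the authors' scaling, -0.1 after quantile normalization and -0.12 without WT replicate 1. Among other collagen pathway genes, 40 were called, 35 higher and 5 lower. The lower calls fell to 3 after quantile normalization and to 3 with median-ratio scaling, and ran from 3 to 6 when samples were left out, with 3 without WT replicate 2, WT replicate 3, TGQ replicate 2 or TGQ replicate 3; the calls lost were those of dpy-4 and dpy-5. The collagen gene dpy-13 gained a call in 3 fits, with the authors' scaling, with the replicate block and without WT replicate 1. No gene changed sign in the 699 comparisons made for single genes, and 7 of 42 pathway genes lost or gained a call in fits that held them. In addition, cutl-9 fell below the filter, and so out of the fit, whenever a TGQ sample was left out. The higher calls of pathway genes ran from 32 to 35 when samples were left out. Same-numbered samples did not deviate together in every pair, with correlations of 0.247, -0.01 and 0.16, so the main fit did not pair them. The 0.247 of the replicate 1 samples was the highest between any WT and any TGQ sample, and whether the samples are paired is unknown. With the replicate block, 5137 genes of the table were called against 4998 without it, and 41 of the pathway genes against 40. Motifs in promoters were planned and not run, as no sequence was used here. Low genes such as col-158 and most cuticlins are limited by their level, since the depth is unknown.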
